A study of Mus musculus with 12 samples.

Results

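The 37 genes described here encode the enzymes that carry glucose 6-phosphate onwards: the steps of glycolysis from phosphoglucose isomerase to pyruvate kinase, the enzymes that set fructose bisphosphate levels, the pentose phosphate pathway, the entry to UDP-glucose, and the glycerol phosphate shuttle. They were chosen by symbol, for the reaction each enzyme catalyses, from the 24421 gene symbols counted in each library, and all 37 were listed there. Earlier results of these data were known when they and the related lists used below were chosen. Messenger RNA was measured in Min6, a mouse beta-cell line derived from an insulinoma. The labels give every sample the genotype WT. Both groups of 6 libraries carried an adenovirus for 48 h and received 0.3 mM PA, as the labels abbreviate it, for 24 h; the virus of the control group (sh-ctrl, titled GFP) was a control virus, and that of the other group (sh-Il22ra1, titled shRNA) was directed against Il22ra1, a receptor subunit for interleukin-22. No sample lacked the virus or PA, so neither effect can be seen here, and the comparison asks how knockdown of Il22ra1 changed transcript levels in cells that all had both. In the treatment labels of the knockdown samples from replicate 2 to 6 the last digit of the gene name counts upwards; their titles put them in 1 group, which was followed here.

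In glycolysis glucose is split into pyruvate, and the step catalysed by phosphofructokinase commits the sugar to that route. Its activity is tuned by fructose 2,6-bisphosphate, a small regulator made and removed by the bifunctional enzymes of the PFKFB family. The pentose phosphate pathway draws off glucose 6-phosphate to make NADPH and ribose. Beta cells sense glucose by metabolising it. They are known for an active glycerol phosphate shuttle, which passes electrons of cytosolic NADH to the mitochondrial respiratory chain, and for little lactate production.

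Libraries held 13108494 to 15887448 reads in genes, and a level in CPM is the number of reads per 1e+06 gene reads, scaled by TMM. Il22ra1 itself had 74 reads in all sh-ctrl and 15 in all sh-Il22ra1 libraries (0.831 ± 0.256 and 0.164 ± 0.0873 CPM, SD, n = 6; groups not overlapping, two-sided exact permutation p = 0.00216, the smallest that 6 against 6 allows). All 12 beta-cell markers on a fixed list had a mean over 1 CPM, and none of the 8 acinar markers did, with Prss2 and Amy2a5 at 0 reads. The beta-cell markers summed to 72315 to 108890 CPM in sh-ctrl and 64985 to 74192 in sh-Il22ra1, with overlap. Markers of other cells moved with the groups: the 6 leukocyte markers summed to 18.4 to 26.6 CPM in sh-ctrl and 5.48 to 8.01 in sh-Il22ra1, nearly all of it Cd68, the 8 fibroblast and stellate markers to 3.09 to 7.10 and 1.42 to 2.13, and the 4 alpha-cell markers, led by Gcg, to 236 to 287 and 139 to 154. The 5 duct markers summed to 192 to 276 CPM in sh-ctrl and 252 to 278 in sh-Il22ra1, the 3 delta and PP markers to 6.34 to 12.2 and 4.53 to 6.89 with Hhex at 0 reads, and the 4 endothelial markers to 1.54 to 4.85 and 3.12 to 4.57. Of the duct markers, Krt7 averaged 170 CPM in sh-ctrl and 220 in sh-Il22ra1, and Spp1 54.0 and 41.6. Reads without an alignment took 12.8% to 17.3% of sh-ctrl and 8.71% to 11.8% of sh-Il22ra1 libraries. On the second principal component sh-ctrl replicates 4 and 1 stood at 31.9 and 18.2, against -17.7 for replicate 2 and -16.2 for replicate 6. The part of these differences in the results that follow was not tested. Fits without sh-ctrl replicates 1 and 4 are given below as a check. No label sets these libraries apart, so their choice rests on these same data. The p-values of those fits are therefore no independent support. Whether the 6 samples of a group came from separate cultures is not in the labels; p-values therefore reflect the spread among these samples alone, which may be technical.

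Of the 37 genes 36 had enough reads to be tested, and 19 of them passed an adjusted p of 0.05 (edgeR's quasi-likelihood test, adjusted over all genes by Benjamini-Hochberg), 8 higher and 11 lower in sh-Il22ra1. Without sh-ctrl replicates 1 and 4 the counts were 13 higher and 10 lower. Over all genes, that fit raised the counts from 3323 to 3781 higher and from 3472 to 4146 lower. With all libraries 51.9% of the 13102 genes tested passed, made up of 25.4% higher and 26.5% lower. The enzymes were thus called about as often as genes in general. The libraries of the 2 groups did not overlap for 12 enzymes, 5 higher (Pfkp, Pgam1, Pgam2, Pfkfb1 and Pgd) and 7 lower (Gpi1, Pfkl, Eno2, Pfkfb3, Pfkfb4, Fbp2 and Gpd1). For all genes that share was 28.1%, with 13.5% higher and 14.6% lower. The median log2 change of the 36 enzymes was -0.0067, beside -0.0043 over all genes tested, and the median size of the change was 0.199 beside 0.259. The exception to testing was Eno1, which had 3 reads in all sh-ctrl and 1 in all sh-Il22ra1 libraries. In bulk RNA, fewer cells of a type and less RNA per cell cannot be told apart.

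**Figure D1:**
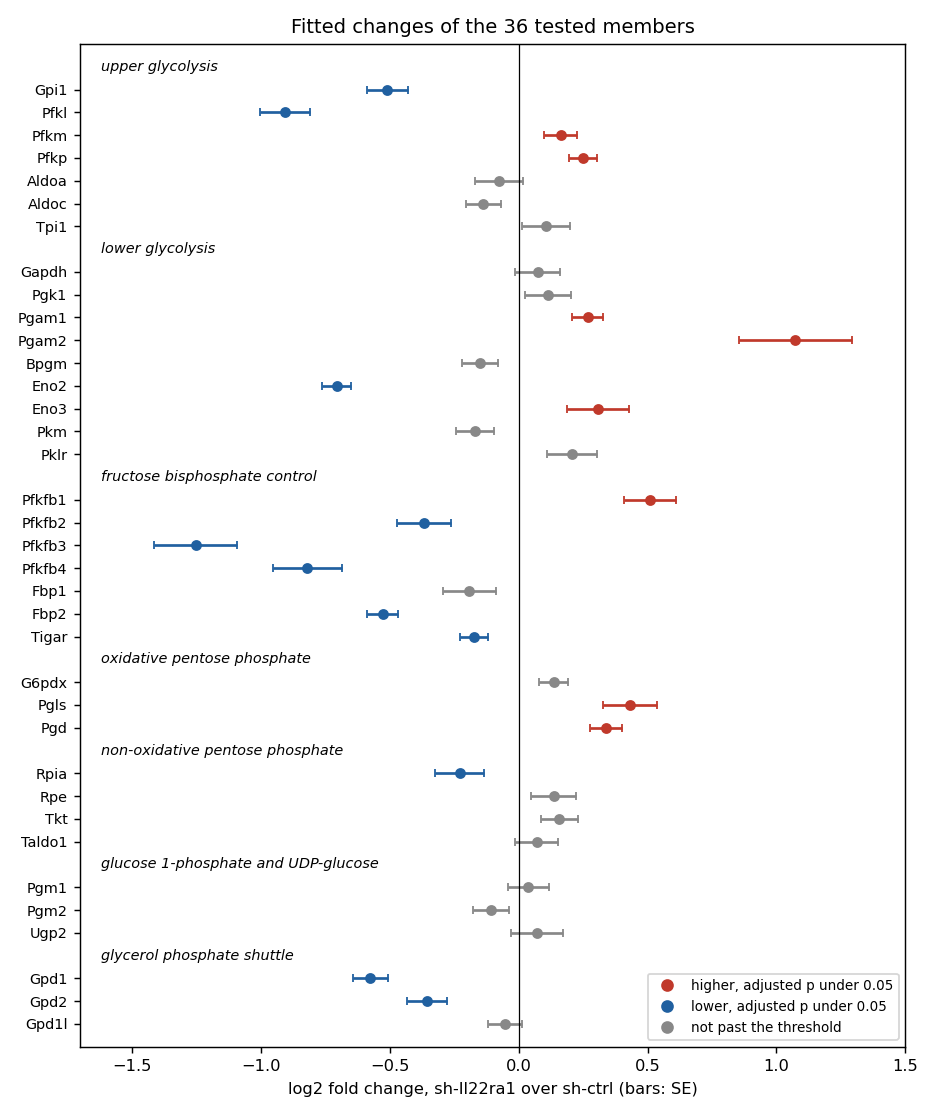
Log2 change (sh-Il22ra1 minus sh-ctrl) of each tested enzyme gene with its standard error, arranged by role in the pathway and marked by whether it passed the adjusted p of 0.05. The lowest value belongs to Pfkfb3 (-1.25) and the highest to Pgam2 (1.07). Of the 7 genes of fructose bisphosphate control 5 passed as lower.

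Together the 37 genes made up 1.55% to 2.03% of all gene reads, with a sum of 17755 ± 2211 CPM (SD, n = 6) for sh-ctrl and 17725 ± 1139 CPM in sh-Il22ra1, and the ranges of the groups overlapped. Gapdh alone supplied 35.8% of that sum in sh-ctrl and 37.7% in sh-Il22ra1. Per kb of transcript, in sh-ctrl, Gapdh stood at 4476 CPM per kb, followed by Tpi1 at 1486, Pkm at 1088, Aldoa at 1057 and Pgk1 at 488. Much lower on this scale, the 3 phosphofructokinase genes stood at 60.3 (Pfkp), 48.9 (Pfkl) and 34.6 (Pfkm) CPM per kb, and the 4 PFKFB genes between 2.59 and 7.72. Pgm1 and Pgm2 were left out of this order because annotations exchange the 2 symbols and their transcript lengths could not be assigned.

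In upper glycolysis 2 of 7 genes were lower, 2 were higher and 3 did not pass. Gpi1, phosphoglucose isomerase, which turns glucose 6-phosphate into fructose 6-phosphate, ranged from 575 to 804 CPM with a median of 644 in sh-ctrl and from 417 to 525 CPM with a median of 457 in sh-Il22ra1. Every sh-Il22ra1 library lay below every sh-ctrl library. Gpi1 fell by 29.7% on the means, 666 ± 81.7 CPM in sh-ctrl and 468 ± 42.0 CPM in sh-Il22ra1 (SD, n = 6 each), a log2 change of -0.51 (SE 0.0793, adjusted p = 3.34e-05). Of its exonic positions in the annotation, 11.5% overlap another gene, and 4.92% of its 100-base stretches occur identically elsewhere.

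Phosphofructokinase is encoded by 3 genes, of which 1 was lower and 2 were higher. Pfkl, the liver type, ranged from 164 to 239 CPM with a median of 174 in sh-ctrl and from 81.4 to 114 CPM with a median of 95.5 in sh-Il22ra1. The sh-ctrl values formed a tight set of 5 from 164 to 179 CPM with replicate 4 alone above them at 239 CPM, and all 6 lay above the highest sh-Il22ra1 library. Pfkl was 1.87-fold lower, 182 ± 28.4 CPM in sh-ctrl and 97.3 ± 12.5 CPM in sh-Il22ra1 (SD, n = 6 each), with a log2 change of -0.91 (SE 0.0962, adjusted p = 3.68e-07). Pfkp, the platelet type, ranged from 235 to 272 CPM with a median of 248 in sh-ctrl and from 285 to 309 CPM with a median of 298 in sh-Il22ra1. All 6 sh-Il22ra1 libraries lay above all 6 sh-ctrl libraries, and the rise was 18.8%, with a log2 change of 0.25 (SE 0.0532, adjusted p = 0.000724). Pfkm, the muscle type, ranged from 86.3 to 110.1 CPM with a median of 101 in sh-ctrl and from 102 to 116 CPM with a median of 113 in sh-Il22ra1, so the groups overlapped. Its rise of 12.0% gave a log2 change of 0.16 (SE 0.0639, adjusted p = 0.0398), and it was past the threshold in 11 of 21 alternative analyses. The adjusted p was up to 0.112, and the call ended without any of sh-ctrl replicates 1, 2 and 5 and sh-Il22ra1 replicates 2 to 6.

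The makeup of phosphofructokinase transcripts differed between the groups. Per kb of transcript, Pfkl supplied 33.9% ± 2.45 (SD, n = 6) of the reads of the 3 genes in sh-ctrl and 19.1% ± 1.90 in sh-Il22ra1, a difference of -14.8 percentage points with no overlap (two-sided exact permutation p = 0.00216, adjusted p = 0.00352 over the 13 isozyme shares computed). Pfkp went from 42.1% ± 1.84 to 52.6% ± 1.16, a difference of 10.5 points with the same exact permutation p and no overlap. Pfkm went from 24.1% ± 1.81 to 28.4% ± 1.43, 4.30 points higher (exact permutation p = 0.00433, adjusted p = 0.00625), and its libraries overlapped. Shares of one family add up to the whole, so a lower share of Pfkl raises the others by construction. The sum of the 3 genes was 143 ± 8.21 reads per 1e+06 gene reads per kb in sh-ctrl and 137 ± 4.93 in sh-Il22ra1, and those ranges overlapped (134 to 157 and 130 to 144).

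**Figure D2:**
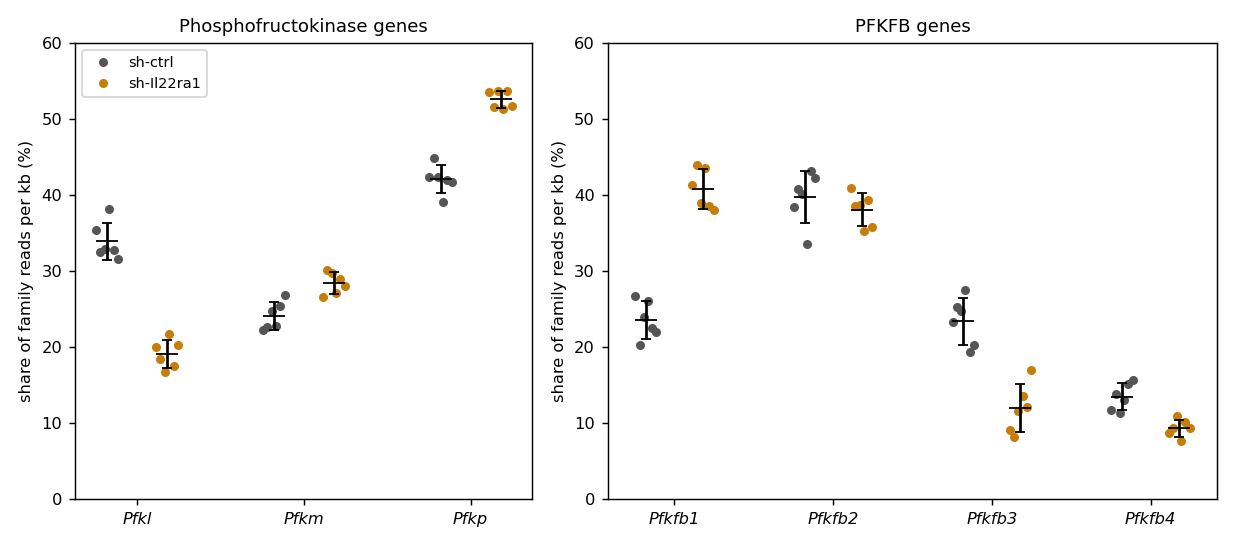
Percent of family reads per kb of transcript supplied by each phosphofructokinase gene and each PFKFB gene, with 1 point per library and the group mean with its SD, for 6 sh-ctrl and 6 sh-Il22ra1 libraries. Pfkl falls from 33.9% to 19.1% while Pfkp rises from 42.1% to 52.6%, and in the PFKFB family Pfkfb1 rises from 23.5% to 40.7% while Pfkfb3 falls from 23.3% to 11.9%.

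The start regions of the 2 genes that parted most are shown for comparison. They are the 250 bases upstream of the RefSeq start on GRCm38.p6, read 5′ to 3′ on the gene's strand, Pfkl from chr10:78009808-78010057 and Pfkp from chr13:6648772-6649021, both on the minus strand. In GENCODE M21, on the same build, the Pfkl gene spans chr10:77986947-78010083, so its window lies inside the gene. The Pfkp gene spans chr13:6579768-6648777. Capitals would mark the letters ACGTG on either strand, and neither window holds them. ACGTG is a form of the core of the element that hypoxia-inducible factor binds. The form GCGTG was not part of the search, and both windows hold it.
Pfkl: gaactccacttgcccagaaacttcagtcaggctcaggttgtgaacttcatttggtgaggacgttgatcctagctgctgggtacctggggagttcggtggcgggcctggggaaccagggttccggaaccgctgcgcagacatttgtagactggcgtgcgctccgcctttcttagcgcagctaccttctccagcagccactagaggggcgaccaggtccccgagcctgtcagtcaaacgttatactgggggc
Pfkp: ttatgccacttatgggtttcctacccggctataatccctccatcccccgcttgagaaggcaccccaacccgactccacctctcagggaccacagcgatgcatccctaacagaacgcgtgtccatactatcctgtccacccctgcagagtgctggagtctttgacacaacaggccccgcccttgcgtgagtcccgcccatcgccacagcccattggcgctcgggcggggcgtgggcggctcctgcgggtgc
Over all 32851 mouse promoters of the same table and length 16.6% hold ACGTG. That no match was found says only that these letters are not in these windows.

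The rest of upper glycolysis did not pass. Aldoa, the main aldolase, measured 1596 ± 277 CPM in sh-ctrl and 1516 ± 117 CPM in sh-Il22ra1 (SD, n = 6 each), with a log2 change of -0.07 (SE 0.0925, adjusted p = 0.519). Aldoc, the brain-type aldolase, measured 25.8 ± 1.83 CPM in sh-ctrl and 23.4 ± 0.900 CPM in sh-Il22ra1 (SD, n = 6 each), and its share of aldolase reads per kb was 0.883% and 0.834% (exact permutation p = 0.368, adjusted p = 0.368). Tpi1, triose phosphate isomerase, which interconverts the 2 triose phosphates, measured 2389 ± 432 CPM in sh-ctrl and 2572 ± 190.1 CPM in sh-Il22ra1 (SD, n = 6 each), with a log2 change of 0.11 (SE 0.0946, adjusted p = 0.359). Without sh-ctrl replicates 1 and 4, where Tpi1 stood at 2527 and 3196 CPM against 1984 to 2225 in the other 4 sh-ctrl libraries, its log2 change was 0.24 (adjusted p = 0.000911). A p above the threshold does not show that levels were alike.

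In lower glycolysis 3 of 9 tested genes were higher, 1 was lower and 5 did not pass. The abundant housekeeping steps lay among the last. Gapdh, glyceraldehyde phosphate dehydrogenase, which makes NADH, measured 6356 ± 829 CPM in sh-ctrl and 6690.4 ± 608 CPM in sh-Il22ra1 (SD, n = 6 each), with a log2 change of 0.07 (SE 0.0863, adjusted p = 0.493). Pgk1, phosphoglycerate kinase, which makes ATP, measured 889.7 ± 139 CPM in sh-ctrl and 963 ± 69.0 CPM in sh-Il22ra1 (SD, n = 6 each), with a log2 change of 0.11 (SE 0.0885, adjusted p = 0.289). Of the 21 alternatives both passed, as higher, only when sh-ctrl replicates 1 and 4 were left out together, with log2 changes of 0.16 (adjusted p = 0.0423) and 0.22 (adjusted p = 0.00435). Reads of these genes are uncertain: 78.0% of the 100-base stretches of Gapdh occur identically in at least 1 of 84 other genes, and 67.0% of those of Pgk1 in other genes.

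Phosphoglycerate mutase, which moves the phosphate of 3-phosphoglycerate, was higher in both its forms. Pgam1, the brain form, ranged from 353 to 443 CPM with a median of 410.3 in sh-ctrl and from 464 to 509 CPM with a median of 487 in sh-Il22ra1, with no overlap. Its rise was 20.4%, with a log2 change of 0.27 (SE 0.0602, adjusted p = 0.00113), and 39.7% of its 100-base stretches occur identically in other genes. Pgam2, the muscle form, ranged from 0.973 to 1.95 CPM with a median of 1.58 in sh-ctrl and from 2.19 to 4.45 CPM with a median of 2.96 in sh-Il22ra1, again with no overlap, from only 129 and 281 reads in all. That is a ratio of 2.10, with a log2 change of 1.07 (SE 0.220, adjusted p = 0.000496). Pgam2 stayed a small part of the mutase reads per kb, 0.768% in sh-ctrl and 1.34% in sh-Il22ra1 (exact permutation p = 0.00216, adjusted p = 0.00352), and the difference of 0.572 points was 0.274 points on reads not divided by length. Bpgm, which makes 2,3-bisphosphoglycerate, measured 31.1 ± 2.66 CPM in sh-ctrl and 28.0 ± 1.21 CPM in sh-Il22ra1 (SD, n = 6 each) and did not pass (adjusted p = 0.0799).

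Enolase forms phosphoenolpyruvate, and its neuronal and endocrine form Eno2 was the lower gene of this stretch. It ranged from 155 to 180.0 CPM with a median of 159.8 in sh-ctrl and from 92.0 to 108 CPM with a median of 98.4 in sh-Il22ra1. The highest sh-Il22ra1 library lay far below the lowest sh-ctrl library, and sh-ctrl replicate 4 stood above its group at 180.0 CPM. The fall was 38.7%, 162 ± 9.28 CPM in sh-ctrl and 99.5 ± 5.81 CPM in sh-Il22ra1 (SD, n = 6 each), with a log2 change of -0.71 (SE 0.0572, adjusted p = 1.17e-08), the smallest p of all the enzymes. Eno3, the muscle enolase, ranged from 6.55 to 12.0 CPM with a median of 8.88 in sh-ctrl and from 10.05 to 12.3 CPM with a median of 11.2 in sh-Il22ra1, so that the groups overlapped, with a log2 change of 0.31 (SE 0.120, adjusted p = 0.0383). Its call ended in 7 of 21 alternatives, those without sh-ctrl replicate 1, 2, 3 or 5 or sh-Il22ra1 replicate 2, 5 or 6, with an adjusted p of up to 0.0949. Eno1, the widely expressed form of the enzyme, could not be tested. Identical copies in other genes exist for 59.0% of its 100-base stretches, and the gene that shares most of them, Eno1b, had 40 and 50 reads in the 2 groups; the part of this in the low count of Eno1 was not tested. The share of Eno3 among the reads per kb of Eno1, Eno2 and Eno3 was 9.06% in sh-ctrl and 16.8% in sh-Il22ra1 (exact permutation p = 0.00216, adjusted p = 0.00352). With only 3 and 1 reads of Eno1 counted in the groups, this share leaves out whatever Eno1 contributes beyond them. The difference of 7.73 points was 4.87 points on reads not divided by length.

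Pyruvate kinase closes glycolysis. Pkm, its main gene in these cells, measured 2646 ± 324 CPM in sh-ctrl and 2355 ± 132 CPM in sh-Il22ra1 (SD, n = 6 each), with a log2 change of -0.17 (SE 0.0742, adjusted p = 0.0648), and sh-ctrl replicate 4 stood apart at 3282 CPM against 2412 to 2663 CPM. Pklr, the liver and red-cell form, measured 15.9 ± 1.11 CPM in sh-ctrl and 18.4 ± 2.70 CPM in sh-Il22ra1 (SD, n = 6 each), with a log2 change of 0.21 (SE 0.0972, adjusted p = 0.0813). Pklr supplied 0.508% of pyruvate kinase reads per kb in sh-ctrl and 0.653% in sh-Il22ra1, with overlap (exact permutation p = 0.0152, adjusted p = 0.0197). Without sh-ctrl replicates 1 and 4 the difference of 0.146 points became 0.116 points with an adjusted p of 0.0567. Exons of another gene overlap 22.0% of Pklr (Hcn3) and 15.3% of Pkm.

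**Figure D3:**
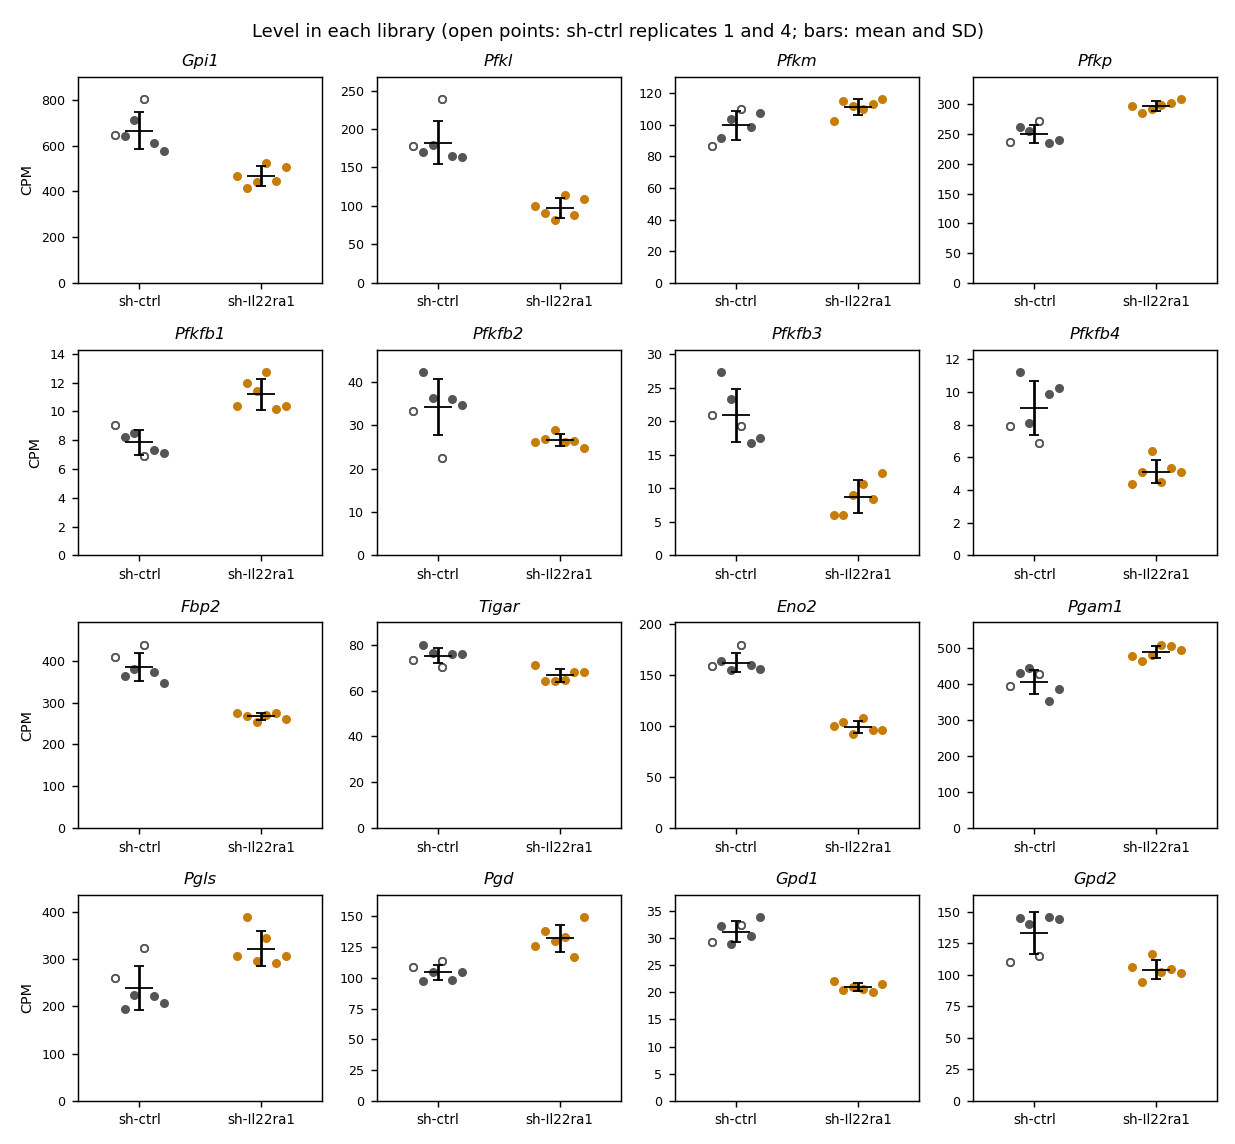
Level in CPM of 16 of the enzyme genes in each library, with the group means and SDs; open points mark sh-ctrl replicates 1 and 4. The groups do not overlap for Gpi1, Pfkl, Pfkp, Pfkfb1, Pfkfb3, Pfkfb4, Fbp2, Eno2, Pgam1, Pgd and Gpd1, and they overlap for Pfkm, Pfkfb2, Tigar, Pgls and Gpd2.

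Of the 7 genes that set fructose bisphosphate levels 5 were lower, 1 was higher and 1 did not pass, with a median log2 change of -0.37. PFKFB enzymes carry a kinase that makes fructose 2,6-bisphosphate and a phosphatase that removes it, in proportions that differ between the 4 genes. Pfkfb3, the inducible form in which the kinase strongly prevails, had the largest fall of all 36 enzymes. It ranged from 16.8 to 27.4 CPM with a median of 20.2 in sh-ctrl and from 5.97 to 12.3 CPM with a median of 8.78 in sh-Il22ra1. The groups did not overlap, though the spread within each was wide for its level. Pfkfb3 was 2.38-fold lower, 20.9 ± 3.97 CPM in sh-ctrl and 8.76 ± 2.50 CPM in sh-Il22ra1 (SD, n = 6 each), with a log2 change of -1.25 (SE 0.162, adjusted p = 4.01e-06). Pfkfb4 ranged from 6.88 to 11.2 CPM with a median of 8.98 in sh-ctrl and from 4.38 to 6.38 CPM with a median of 5.08 in sh-Il22ra1, without overlap, and was 1.76-fold lower with a log2 change of -0.82 (SE 0.134, adjusted p = 5.57e-05).

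Pfkfb2, the heart-type form that is also known in islets, ranged from 22.5 to 42.3 CPM with a median of 35.3 in sh-ctrl and from 24.8 to 28.9 CPM with a median of 26.3 in sh-Il22ra1. Of the sh-ctrl libraries 5 lay at 33.2 to 42.3 CPM and replicate 4 alone at 22.5 CPM, below every sh-Il22ra1 library. The log2 change was -0.37 (SE 0.106, adjusted p = 0.00732) with all libraries and -0.51 (adjusted p = 9.64e-07) without sh-ctrl replicates 1 and 4. Exons of Gm29427 and Yod1 overlap 19.5% of Pfkfb2, and Gm29427 shares 23.9% of its 100-base stretches. Pfkfb1, the liver form, went the other way. It ranged from 6.88 to 9.08 CPM with a median of 7.79 in sh-ctrl and from 10.2 to 12.7 CPM with a median of 10.9 in sh-Il22ra1, without overlap, a rise of 42.3% with a log2 change of 0.51 (SE 0.101, adjusted p = 0.000351).

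As for phosphofructokinase, the family's makeup differed. Per kb of transcript Pfkfb1 went from 23.5% ± 2.49 (SD, n = 6) of PFKFB reads to 40.7% ± 2.62, a difference of 17.2 points. Pfkfb3 went from 23.3% ± 3.11 to 11.9% ± 3.18, -11.4 points, and Pfkfb4 from 13.4% ± 1.77 to 9.31% ± 1.11, -4.10 points. In these 3 cases the libraries did not overlap (exact permutation p = 0.00216 each, adjusted p = 0.00352). On reads not divided by length the differences were 10.7 points for Pfkfb1 and -2.66 points for Pfkfb4. The share of Pfkfb2 was 39.7% and 38.1%, a difference of -1.65 points that did not pass (exact permutation p = 0.346, adjusted p = 0.368). It was -3.50 points with an adjusted p of 0.0371 without sh-ctrl replicates 1 and 4, and it turned to 4.27 points on reads not divided by length.

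The phosphatases of fructose bisphosphates were lower too, as far as they passed. Fbp2, the muscle fructose 1,6-bisphosphatase, which undoes the phosphofructokinase step, was the sixth most abundant of the enzymes per kb, at 284 CPM per kb in sh-ctrl beside 17.6 for Fbp1, the liver form. Fbp2 ranged from 346 to 439 CPM with a median of 376 in sh-ctrl and from 255 to 274 CPM with a median of 269 in sh-Il22ra1. The sh-Il22ra1 libraries lay within a narrow band below every sh-ctrl library. Fbp2 fell by 30.6%, 385 ± 33.5 CPM in sh-ctrl and 267 ± 7.73 CPM in sh-Il22ra1 (SD, n = 6 each), with a log2 change of -0.53 (SE 0.0598, adjusted p = 8.20e-07). Fbp1 measured 26.0 ± 3.94 CPM in sh-ctrl and 22.7 ± 2.76 CPM in sh-Il22ra1 (SD, n = 6 each), with a log2 change of -0.19 (SE 0.103, adjusted p = 0.127). Tigar, a phosphatase of fructose 2,6-bisphosphate known as a target of p53, ranged from 70.3 to 80.1 CPM with a median of 76.1 in sh-ctrl and from 64.1 to 71.2 CPM with a median of 66.4 in sh-Il22ra1, with a log2 change of -0.17 (SE 0.0546, adjusted p = 0.0122). Its groups overlapped by a single sh-Il22ra1 library at 71.2 CPM.

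The letters CACGTG, the E-box bound by ChREBP and other basic helix-loop-helix factors, were in a start region of 3 lower genes (Fbp2, Pfkfb2 and Pfkfb3), 1 higher gene (Pfkm) and 1 that did not pass (Gpd1l). The windows of the 2 lower genes whose groups did not overlap are printed. They are again 250 bases upstream of a RefSeq start on GRCm38.p6, Pfkfb3 from chr2:11502091-11502340 (minus strand), 1 of 2 starts listed, and Fbp2 from chr13:62858401-62858650 (minus strand). The Pfkfb3 gene spans chr2:11471433-11554077, so its window lies inside the gene, and Fbp2 spans chr13:62836877-62858422, next to Fbp1 at chr13:62864753-62888282. Capitals mark CACGTG, which reads the same on both strands and holds ACGTG on each.
Pfkfb3: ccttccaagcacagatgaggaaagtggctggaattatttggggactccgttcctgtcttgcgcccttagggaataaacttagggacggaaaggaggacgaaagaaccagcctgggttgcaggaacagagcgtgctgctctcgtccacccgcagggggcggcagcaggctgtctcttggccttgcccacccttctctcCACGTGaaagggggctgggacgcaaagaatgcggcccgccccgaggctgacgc
Fbp2: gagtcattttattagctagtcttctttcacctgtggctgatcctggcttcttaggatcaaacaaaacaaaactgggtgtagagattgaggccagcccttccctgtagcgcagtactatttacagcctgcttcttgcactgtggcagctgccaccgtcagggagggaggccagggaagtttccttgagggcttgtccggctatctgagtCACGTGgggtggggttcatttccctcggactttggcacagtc
The capitals start 53 bases before the start in Pfkfb3 and 42 bases before it in Fbp2. CACGTG is held by 6.02% of all promoters and by 5 of the 36 enzymes with a RefSeq entry, ACGTG by 16.6% of promoters and by 13 of the 36, where a gene with several starts counts if any of its windows has it. Sorted by call, ACGTG was found for 2 of 8 higher genes (Pfkm and Pgam1), for 4 of 10 lower genes with an entry (Fbp2, Gpd2, Pfkfb2 and Pfkfb3) and for 7 of 17 that did not pass. The letters TNAAGGTCA, bound by estrogen-related receptors, were in no window of the enzymes and in 1.14% of promoters, and TGACNNNGC, the antioxidant response letters, were in those of 5 enzymes, none of them called, and in 10.2% of promoters. The percentages of all promoters are counted by window. Counted that way, CACGTG was in 5 of the 55 windows of the enzymes, ACGTG in 17 and TGACNNNGC in 5. All searches covered both strands, and a match of letters is a description, not a site.

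The oxidative branch of the pentose phosphate pathway, which makes NADPH, had 2 of 3 genes higher. Pgd, 6-phosphogluconate dehydrogenase, the second NADPH-producing step, ranged from 97.6 to 114 CPM with a median of 104 in sh-ctrl and from 117 to 149 CPM with a median of 132 in sh-Il22ra1. The groups did not overlap, and the rise was 26.5%, 105 ± 6.14 CPM in sh-ctrl and 132 ± 11.0 CPM in sh-Il22ra1 (SD, n = 6 each), with a log2 change of 0.34 (SE 0.0632, adjusted p = 0.000212). Pgls, 6-phosphogluconolactonase, ranged from 194 to 324 CPM with a median of 224 in sh-ctrl and from 292 to 389 CPM with a median of 306 in sh-Il22ra1. Here sh-ctrl replicate 4, at 324 CPM, lay among the sh-Il22ra1 libraries, while the other 5 sh-ctrl libraries lay below them all. Pgls rose by 34.9%, with a log2 change of 0.43 (SE 0.105, adjusted p = 0.00207), and 20.6% of its exonic positions overlap Fam129c. G6pdx, glucose 6-phosphate dehydrogenase, the entry and first NADPH-producing step, measured 69.1 ± 4.09 CPM in sh-ctrl and 76.0 ± 3.12 CPM in sh-Il22ra1 (SD, n = 6 each), with a log2 change of 0.14 (SE 0.0566, adjusted p = 0.0511), just outside the threshold. It passed as higher in 7 of 21 alternatives.

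The non-oxidative branch, which trades ribose phosphate with glycolytic intermediates, showed 1 lower gene of 4. Rpia, ribose 5-phosphate isomerase, ranged from 24.5 to 31.2 CPM with a median of 25.0 in sh-ctrl and from 18.1 to 25.1 CPM with a median of 24.1 in sh-Il22ra1, so that the groups overlapped, with a log2 change of -0.23 (SE 0.0936, adjusted p = 0.0482). That call ended in 10 of 21 alternatives, with an adjusted p of up to 0.147, among them leaving out any of sh-ctrl replicates 1, 3, 4 and 5 and sh-Il22ra1 replicates 2, 3 and 5. Rpe, ribulose phosphate epimerase, measured 31.9 ± 4.29 CPM in sh-ctrl and 35.05 ± 2.62 CPM in sh-Il22ra1 (SD, n = 6 each), with an adjusted p of 0.196. Tkt, transketolase, measured 306 ± 32.8 CPM in sh-ctrl and 341 ± 28.1 CPM in sh-Il22ra1 (SD, n = 6 each), with a log2 change of 0.16 (SE 0.0725, adjusted p = 0.0745), and Taldo1, transaldolase, measured 186 ± 29.8 CPM in sh-ctrl and 195 ± 10.005 CPM in sh-Il22ra1 (SD, n = 6 each), with an adjusted p of 0.5004. In both, sh-ctrl replicate 4 was the highest library of its group (369 and 242 CPM). Without sh-ctrl replicates 1 and 4 both were higher, with log2 changes of 0.23 (adjusted p = 0.00115) and 0.15 (adjusted p = 0.0337).

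None of the 3 genes at the entry to UDP-glucose and glycogen passed in edgeR's test, 0 had an unadjusted p under 0.05, and 0 passed with DESeq2 or limma-voom. Pgm1 and Pgm2, listed here by the symbols of the count files, measured 16.4 ± 1.21 CPM in sh-ctrl and 16.9 ± 1.28 CPM in sh-Il22ra1 (SD, n = 6 each) for the first and 233 ± 27.3 CPM in sh-ctrl and 216 ± 11.3 CPM in sh-Il22ra1 (SD, n = 6 each) for the second. Ugp2, UDP-glucose pyrophosphorylase, measured 24.6 ± 4.19 CPM in sh-ctrl and 25.8 ± 2.79 CPM in sh-Il22ra1 (SD, n = 6 each). The reads of Pgm1 were 6.65% of those of both phosphoglucomutases in sh-ctrl and 7.26% in sh-Il22ra1 (exact permutation p = 0.143, adjusted p = 0.169).

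Both enzymes of the glycerol phosphate shuttle were lower. Gpd1, the cytosolic dehydrogenase that reduces dihydroxyacetone phosphate with NADH, ranged from 28.8 to 33.8 CPM with a median of 31.3 in sh-ctrl and from 20.1 to 22.0 CPM with a median of 20.7 in sh-Il22ra1. No libraries overlapped, and the fall was 32.8%, 31.1 ± 1.98 CPM in sh-ctrl and 20.9 ± 0.684 CPM in sh-Il22ra1 (SD, n = 6 each), with a log2 change of -0.57 (SE 0.0663, adjusted p = 1.02e-06). Gpd2, the mitochondrial dehydrogenase that passes those electrons on, ranged from 109.9 to 146 CPM with a median of 142 in sh-ctrl and from 94.2 to 116 CPM with a median of 103 in sh-Il22ra1. Among the sh-ctrl libraries 4 lay at 140.2 to 146 CPM, above all sh-Il22ra1 libraries, and replicates 1 and 4 lay at 110 and 115 CPM, within their range. The log2 change of Gpd2 was -0.36 (SE 0.0773, adjusted p = 0.000839) with all libraries and -0.48 (adjusted p = 2.61e-08) without those 2. With offsets for transcript length and GC content it was -0.22 (adjusted p = 0.000549). Since replicates 1 and 4 were the sh-ctrl libraries within the sh-Il22ra1 range, leaving them out narrows the spread of Gpd2 by construction. Gpd1l, a relative of Gpd1 that is also cytosolic, measured 69.7 ± 5.51 CPM in sh-ctrl and 67.2 ± 4.25 CPM in sh-Il22ra1 (SD, n = 6 each) and did not pass (adjusted p = 0.528). Per kb, Gpd1 went from 40.7% ± 2.58 (SD, n = 6) of the reads of Gpd1 and Gpd1l to 32.4% ± 1.53, -8.37 points with no overlap (exact permutation p = 0.00216, adjusted p = 0.00352). Another gene overlaps 12.97% of the exonic positions of Gpd1.

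**Figure D4:**
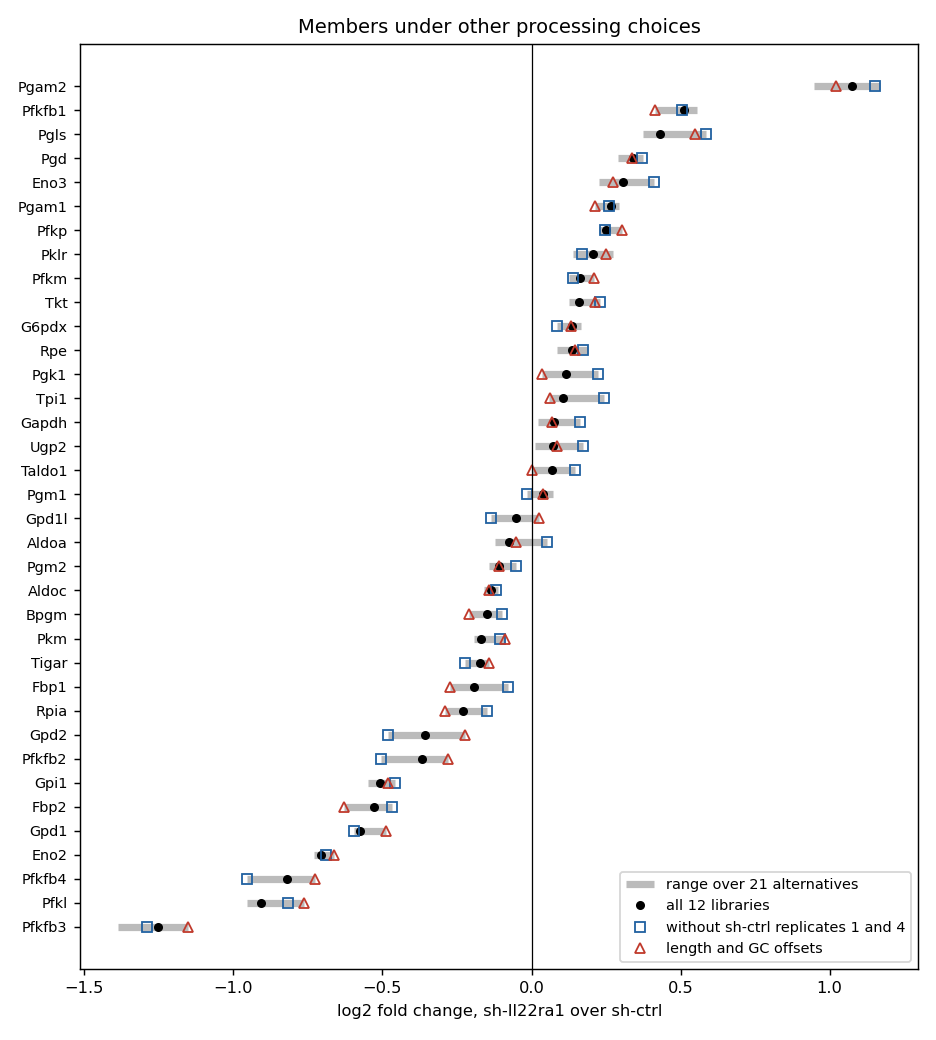
Log2 change of each tested enzyme gene with all libraries and the range over 21 alternative analyses (other scalings and tools, filters, the replicate number as a block, length and GC offsets, and libraries left out). Of the 8 higher and 11 lower genes, 6 and 10 stayed past the threshold in all 21, the exceptions being Pfkm, Eno3 and Rpia.

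Neighbouring pathways were followed through 14 lists of 137 genes, of which 121 were tested, 35 of them higher and 37 lower, to be read beside the 25.4% and 26.5% of all genes tested. Of the 8 glucose entry genes 4 were lower and 4 did not pass. Slc2a2, the beta-cell glucose transporter, measured 167 ± 18.6 CPM in sh-ctrl and 87.3 ± 4.17 CPM in sh-Il22ra1 (SD, n = 6 each), with a log2 change of -0.93 (SE 0.0718, adjusted p = 5.82e-09). Slc2a1, the other main glucose transporter, and Hkdc1, a hexokinase-like gene, had log2 changes of -0.58 (adjusted p = 0.000627) and -0.66 (adjusted p = 0.00512). The value of Hkdc1 rests on only 214 reads in sh-ctrl and 138 in sh-Il22ra1. Pyruvate and lactate handling had 5 higher and 6 lower of 14, led by Ldhb, a lactate dehydrogenase subunit, at 20.0 ± 2.80 CPM in sh-ctrl and 70.7 ± 7.07 CPM in sh-Il22ra1 (SD, n = 6 each), with a log2 change of 1.82 (SE 0.0915, adjusted p = 2.39e-11). Pdhb, a subunit of pyruvate dehydrogenase, rose by 0.67 on the log2 scale (adjusted p = 1.75e-08), and Slc16a7, a monocarboxylate carrier, changed by -1.06 (adjusted p = 1.04e-06).

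The malate-aspartate shuttle, the other route for cytosolic NADH, had 3 higher genes and 1 lower of 7, with a median log2 change of 0.30. The 3 were Got1, the cytosolic aspartate aminotransferase, at 97.9 ± 5.82 CPM in sh-ctrl and 139 ± 4.48 CPM in sh-Il22ra1 (SD, n = 6 each) with a log2 change of 0.50 (SE 0.0540, adjusted p = 4.15e-07), and the malate dehydrogenases Mdh2 and Mdh1 with log2 changes of 0.39 (adjusted p = 5.20e-05) and 0.34 (adjusted p = 0.000235). Beside these values stand the -0.57 and -0.36 of the 2 glycerol phosphate shuttle genes. The lower gene was the mitochondrial aminotransferase Got2 at -0.18 (adjusted p = 0.0101), named here after its values were seen, and the 3 carrier genes did not pass.

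Of the 13 glycogen genes 7 were lower and 6 did not pass, with a median log2 change of -0.25. Gbe1, the branching enzyme, and Phka1 and Phkg2, subunits of phosphorylase kinase, had log2 changes of -0.72, -0.53 and -0.44 (adjusted p = 3.25e-06, 0.000592 and 0.00185). The hexosamine and UDP-sugar genes had 1 higher and 3 lower of 9, the 3 being Ugdh (-0.35, adjusted p = 0.000984), which makes UDP-glucuronate, Gfpt2 (-1.54, adjusted p = 0.00131), an entry enzyme of the hexosamine route with only 83 and 29 reads, and Pgm3 (-0.34, adjusted p = 0.00258). Other genes overlap 28.3% of Pgm3, 21.9% of Phkg2 and 20.0% of Tkfc.

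All 3 tested genes of polyol and fructose metabolism were higher. Khk, ketohexokinase, and Tkfc, triokinase, had log2 changes of 0.70 (adjusted p = 3.32e-06) and 0.63 (adjusted p = 6.71e-07). Sord, sorbitol dehydrogenase, rose by 0.15 (adjusted p = 0.0330), a call that ended in 8 of 21 alternatives, with length and GC offsets and without any of sh-ctrl replicates 2, 3, 5 and 6 and sh-Il22ra1 replicates 1, 4 and 6 (adjusted p up to 0.0858). Of the 7 tested genes on a list of ribose use and other pentose phosphate genes 4 were higher and 3 did not pass: Prps1 and Prps2, which make phosphoribosyl pyrophosphate, at 0.65 and 0.56 (adjusted p = 1.89e-08 and 7.14e-06), and Rbks, ribokinase, at 0.78 (adjusted p = 4.06e-06) were named by their p. Other sources of NADPH had 4 higher and 1 lower of 8, among them Idh1 (0.28, adjusted p = 0.000979), Me3 (0.38, adjusted p = 0.00194) and Me1 (0.19, adjusted p = 0.0134). Of the 5 serine synthesis genes 2 were higher and 3 did not pass, the 2 being Psat1 and Shmt2, both at 0.27 (adjusted p = 0.000277 and 0.000438). Users of glycerol 3-phosphate and dihydroxyacetone phosphate had 2 higher and 1 lower of 5: Gnpat and Dhrs7b, of ether lipid synthesis, rose by 0.44 and 0.45 (adjusted p = 5.40e-06 and 7.63e-05), and Pgp, a phosphatase of phosphoglycolate and glycerol 3-phosphate, changed by -0.90 (adjusted p = 1.73e-07).

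Transcription factors known to act on these genes had 4 higher and 5 lower members of 14. Esrra, estrogen-related receptor alpha, rose from 44.6 ± 1.80 to 85.5 ± 8.71 CPM, a log2 change of 0.94 (SE 0.0692, adjusted p = 3.28e-09). Hif1a, the oxygen-regulated factor, went from 69.3 ± 7.16 to 43.0 ± 4.50 CPM, a log2 change of -0.69 (SE 0.0811, adjusted p = 1.26e-06). Nfe2l2, which encodes NRF2, rose by 0.52 (adjusted p = 1.54e-06). A list of HIF1 targets, which holds the enzyme Pfkfb3, had 2 higher and 8 lower of 15 and a median of -0.17. Pdk1, a kinase that inhibits pyruvate dehydrogenase, and P4ha1, a collagen prolyl hydroxylase, fell by 0.85 and 0.37 on the log2 scale (adjusted p = 6.51e-06 and 0.000391), while Ddit4, an inhibitor of mTORC1, rose by 0.89 (adjusted p = 8.45e-09). A list of ChREBP targets, with the enzymes Pklr, Gpd1 and Tkt in it, had 2 higher and 2 lower of 13. Mlxipl, which encodes ChREBP itself, and the arrestin gene Arrdc4 rose by 0.25 and 0.41 (adjusted p = 0.00376 and 0.0192), and Klf10, a zinc finger factor, changed by -0.32 (adjusted p = 0.00185). NRF2 targets, with G6pdx, Pgd, Taldo1 and Tkt among them, had 6 higher and 3 lower of 13, with Gclc and Txnrd1, of glutathione synthesis and thioredoxin reduction, at 0.70 and 0.48 (adjusted p = 4.33e-08 and 2.27e-05) and Osgin1, an oxidative stress response gene, at -0.65 (adjusted p = 1.79e-07).

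**Figure D5:**
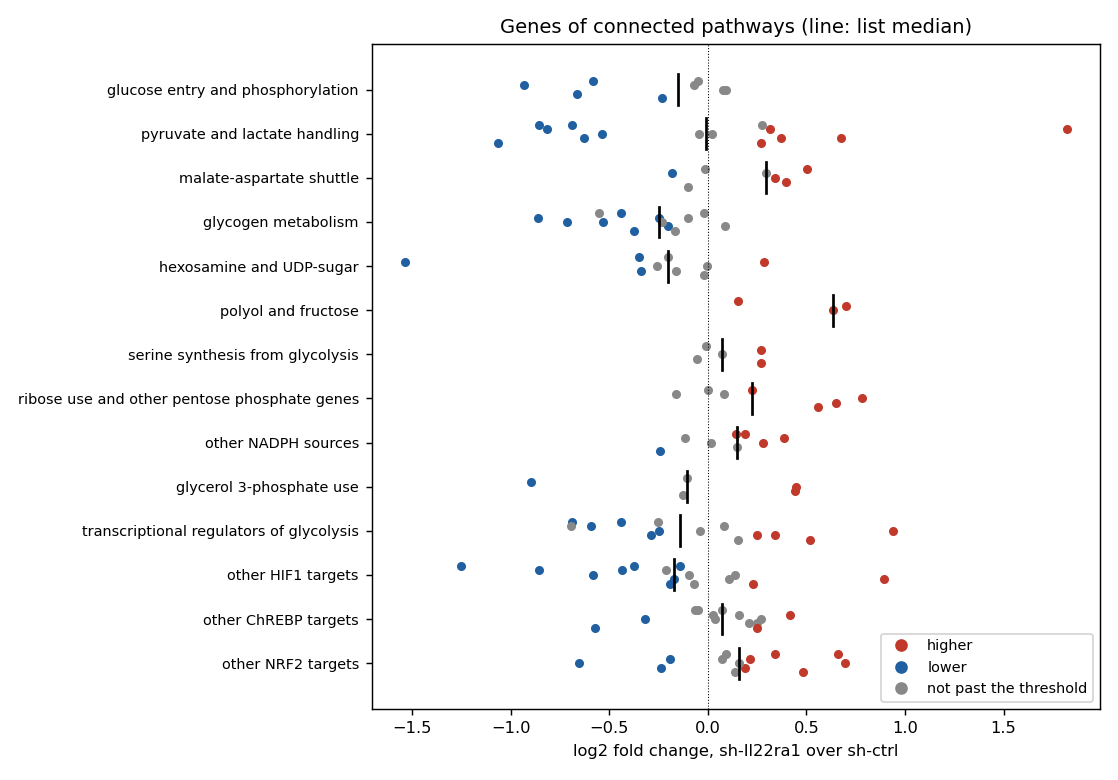
Log2 change of each tested gene in the 14 related lists, 1 point per gene, with the list median; some genes stand in more than 1 list, and the target lists include enzymes described above such as Pfkfb3. Glycogen and glucose entry genes lie mostly below 0 (medians -0.25 and -0.15), and malate-aspartate, polyol and ribose genes mostly above (0.30, 0.63 and 0.22).

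The insulin genes mark the state of the line. Ins1 measured 3502 ± 512 CPM in sh-ctrl and 2721 ± 195 CPM in sh-Il22ra1 (SD, n = 6 each), with a log2 change of -0.36 (SE 0.0850, adjusted p = 0.00153), and Ins2 measured 49586 ± 10354 CPM in sh-ctrl and 42876 ± 3216 CPM in sh-Il22ra1 (SD, n = 6 each), with a log2 change of -0.21 (SE 0.112, adjusted p = 0.123).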

How the data were processed

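Total RNA from 6 sh-ctrl and 6 sh-Il22ra1 samples was sequenced as paired ends, per the labels' protocols. The deposited files hold whole-number read counts per gene symbol; HISAT2 2.0.5, HTSeq and mm10 are named in the submitters' processing notes, while annotation and strand setting were not given in the sources used here. Rows of unassigned reads were dropped. In R 4.3.3, edgeR 4.0.16 tested the 13102 genes kept by filterByExpr (minimum count 10, minimum total 15), with TMM scaling, glmQLFit and glmQLFTest and no block. The SE is the size of the log2 change divided by the square root of F. Isozyme shares were compared by exact permutation over 924 splits. Python 3.11.15 and scipy 1.17.1 were used for shares and sequences, and the count test was tested on simulated data. The simulation altered only a small part of the genes, equally in both directions. It therefore does not cover a comparison in which 51.9% of genes pass.

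The 37 genes and the 14 related lists were chosen with earlier results of these data known. Named were all 37, Il22ra1, Ins1, Ins2 and up to 3 called genes with the smallest p from each related list. The 21 alternatives were RLE and upper-quartile scaling, DESeq2 1.42.0, limma-voom (limma 3.58.1), no filter, a mean of at least 1 CPM, the replicate number as a block, sh-ctrl replicates 1 and 4 left out together, offsets for transcript length and GC content, and each library left out in turn. Transcript lengths, exon overlap and identical 100-base stretches came from GENCODE M21 on GRCm38, with 23376 symbols matched directly and 651 by synonym, and promoters from RefSeq on GRCm38.p6, where 36 of the 37 genes matched. No 2 libraries of a group were duplicates (lowest chi-square 3.95 per degree of freedom). The deposited table of CPM for the whole series was not used here.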

Additional observations from a re-analysis of the deposited data

Results flagged for a closer look

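In 186 groups of 6 libraries (36 enzymes, 41 related genes, Il22ra1, Ins1 and Ins2, and 13 isozyme shares, each in both conditions), 10 had a library far from the other 5 by Dixon's criterion, which chance alone gives in about 1 of 20, or 9.3 here. Of the 10, 7 were sh-ctrl replicate 4. That library held Pfkl at 238.9 CPM (the others 164 to 179), Eno2 at 179.99 CPM (155 to 164), Pkm at 3282 CPM (2412 to 2663), Tkt at 368.6 CPM (283 to 314) and Pgm2 at 285.7 CPM (206 to 233), all high. It held Slc2a2 at 131.6 CPM (165 to 181) and the Pklr share of pyruvate kinase at 0.391% (0.504% to 0.573%), both low. The other 3 were Ugp2 in sh-ctrl replicate 1 at 32.9 CPM (21.4 to 24.1), Pgk1 in sh-Il22ra1 replicate 3 at 831.65 CPM (968 to 1034) and Rpe in sh-Il22ra1 replicate 2 at 30.04 CPM (34.7 to 36.9).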

How the results depend on the processing

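Over the 21 alternatives, the 36 tested enzymes gave 756 values, of which 702 kept the side of the threshold, 27 fell short of it, 27 newly passed it and 0 changed sign while called. The calls of 23 enzymes were the same in all 21. The count of higher enzymes was 13 without sh-ctrl replicates 1 and 4 together, where Tpi1, Gapdh, Pgk1, Tkt and Taldo1 joined. Rpia was lost there as a lower enzyme. In the same fit 3781 genes in all were higher and 4146 lower, against 3323 and 3472 with all libraries. Tpi1, Tkt and Taldo1 also passed without sh-ctrl replicate 4 alone. Leaving out 1 library at a time gave 6 to 11 higher and 10 to 13 lower enzymes, 2881 to 3521 higher and 3239 to 3970 lower genes in all, and 32 to 35 higher and 32 to 41 lower related genes. With length and GC offsets, 11 enzymes were higher and 13 lower, and 4375 genes in all were higher and 3306 lower. The enzymes gained there were Bpgm and Fbp1 as lower and Pklr, G6pdx and Tkt as higher. Of the 43 related genes and insulin genes 41 kept their call throughout; Sord lost it in 8 alternatives, and Ins2 passed with length and GC offsets (-0.30, adjusted p = 0.000226) and without sh-ctrl replicate 2 (-0.28, adjusted p = 0.0278).

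Of the 13 isozyme shares 10 were on the same side throughout. Without sh-ctrl replicates 1 and 4 the Pklr share differed by 0.116 points (adjusted p = 0.0567) and that of Pfkfb2 by -3.50 points (adjusted p = 0.0371). The Pgm1 share differed by 0.341 to 0.799 points when 1 library was left out, with an adjusted p of 0.0460 without sh-ctrl replicate 2 and of up to 0.348 otherwise. The cause of these changes was not tested.

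Replicate numbers recur in both groups, but libraries with the same number did not all deviate together (correlations from -0.0328 to 0.229, only number 4 highest with its own), and the numbers were not taken as pairs, since only 3 of the 6 correlations were above 0.1. With the replicate number as a block 9 enzymes were higher and 12 lower (Pkm lower and Tkt higher in addition), and 3463 genes in all were higher and 3566 lower. Depth limits Pgam2, Hkdc1, Gfpt2 and Il22ra1, which rest on few reads, and Eno1, which could not be tested.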
